A study of Mus musculus with 2 samples.

Results

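Macrophages that carry the messenger RNAs of the complement protein C1q were examined among the live cells of dissociated mouse lungs, and they made up 217 of the 29837 cells that passed the quality limits. The study compared adult mice that lack GFI1, a zinc-finger protein that represses transcription during blood cell development, with mice that have it, and all mice were kept on the C57BL6/J background. The labels give no treatment, and 1 library labelled GFI1 KO and 1 labelled GFI1 WT, each from the lungs of 1 mouse and sorted for live cells without selecting a cell type, were analysed here. For each cell the matrices hold counts of unique molecular identifiers (UMIs, each standing for 1 captured RNA molecule) for 33696 genes and 18 antibody tags. Both genotypes had duplicate samples in the study, and the other duplicates were not analysed here. With 1 library per label no test was possible, the genotype cannot be told apart from the mouse and the library, and every interval below is a 95% interval that covers counting error only.

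A cell was counted as a C1q macrophage when it had at least 1 UMI of each of C1qa, C1qb and C1qc and at least 6 of the 3 together, showed at most 2 of 5 alveolar macrophage genes (Plet1, Krt79, Atp6v0d2, Flvcr2 and Kcnip4), and had no UMI of the T cell gene Cd3e, the B cell gene Cd79a or the endothelial gene Ptprb. The rule was applied to cells with at least 500 UMIs, at least 200 genes and at most 20% mitochondrial UMIs. It picked 53 of 10495 cells under the GFI1 KO label and 164 of 19342 under the WT label. The cells were thus chosen by the UMIs of C1qa, C1qb, C1qc and the excluded genes, and the levels of these genes are given as a description. Levels are in CPM, the UMIs of a gene per 1000000 UMIs of all genes except ribosomal protein, mitochondrial and Gm- genes, summed over the cells of a label.

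C1q is the recognition molecule of the classical complement pathway, and it binds antibody complexes and dying cells and marks them for uptake. It is built from chains that the neighbouring genes C1qa, C1qb and C1qc encode, and tissue macrophages are a main source of it. In the mouse lung the interstitial macrophages, which lie in the tissue around airways and vessels, are known for C1q, whereas the alveolar macrophages of the airspaces carry little of it. Interstitial macrophages are often described as a range between cells with Lyve1, Folr2 and other scavenger receptors and cells with much MHC class II, the molecules that present antigen to CD4 T cells. Some of them are replaced from blood monocytes, which carry Ccr2 and Ly6c2 when classical and Treml4 and Ace when nonclassical.

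The stretches of 250 bases before the starts of C1qb and C1qc are shown because UMIs of these genes define the cells. They come from RefSeq on build GRCm38.p6, an older build than the GRCm39 that the submitters' processing notes name, and 2 of the 3 genes were matched in that table; C1qa was not. C1qb lies on the minus strand with its stretch at chr4:136886201-136886450, and C1qc on the minus strand with its stretch at chr4:136892915-136893164. Both read 5′ to 3′ along the gene, and capitals mark the letters TGCTGA, the element that Maf family proteins are known to bind.
C1qb: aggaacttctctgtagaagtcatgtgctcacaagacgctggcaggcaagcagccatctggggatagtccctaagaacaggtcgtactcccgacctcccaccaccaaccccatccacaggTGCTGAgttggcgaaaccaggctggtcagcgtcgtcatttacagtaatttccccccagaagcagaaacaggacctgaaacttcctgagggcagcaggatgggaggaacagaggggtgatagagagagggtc
C1qc: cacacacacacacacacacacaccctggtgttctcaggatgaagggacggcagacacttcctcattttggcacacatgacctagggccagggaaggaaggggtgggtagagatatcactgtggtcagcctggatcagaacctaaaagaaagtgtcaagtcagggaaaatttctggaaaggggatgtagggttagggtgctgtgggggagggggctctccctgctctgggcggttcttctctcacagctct
TGCTGA or its reverse complement TCAGCA stood in 16.1% of 32851 promoters of the same length, in C1qb from 131 to 126 bases before the start, and was not found in the C1qc stretch. GAGGAA or TTCCTC, the core that PU.1 is known to bind, stood in 23.3% of the promoters, in C1qb from 30 to 25 bases and in C1qc, on the other strand, from 193 to 188 bases before the start. These matches are a description of the letters and show no binding.

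Markers of interstitial macrophages were present in these cells, in a list of 20 genes that includes C1qa, C1qb and C1qc of the rule. These C1q genes gave 3027 of the list's 10973 KO UMIs and 14692 of its 42972 WT UMIs. Apoe, which the rule did not use, gave 4301 and 15587. The gap to alveolar macrophages in the summed level was thus in part fixed by the rule. All 20 genes of that list had UMIs under both labels, and their summed level was 21931 CPM under the KO label and 33941 CPM under WT, against 3928.5 and 3904 CPM in alveolar macrophages (cells with at least 3 of the 5 alveolar genes). Csf1r, the receptor for the macrophage growth factor CSF1, was seen in 53 of 53 and 158 of 164 cells. Apoe, a lipid carrier that macrophages secrete, was seen in 50 and 143. Antibody tags, which the rule did not use, showed CD11b, an integrin of interstitial macrophages and monocytes, at 30 or more tag UMIs on every cell. Its median was 605 tag UMIs per cell under the KO label, with a lowest value of 85, and 351.5 under WT, with a lowest value of 33. Alveolar macrophages had medians of 5 and 4, with 90th percentiles of 26 and 23. Monocytes carried it too, with medians of 758 and 456 on classical ones without NK or T cell UMIs and of 519 and 355.5 on nonclassical ones. The tag thus set these cells apart from alveolar macrophages but not from monocytes.

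The median C1q macrophage had 10821 gene UMIs and 3227 genes under the KO label and 8407 UMIs and 2854.5 genes under WT, against library medians of 11076 and 6217 UMIs. The 3 C1q genes gave a median of 30 UMIs per cell under KO, from 6 to 337, and a median of 72.5 under WT, from 6 to 381. C1qa was at 2115 and 4843 CPM, C1qb at 2616 and 4083 CPM and C1qc at 1319 and 2678 CPM under KO and WT. The cells held 63.4% of the C1q UMIs of all kept cells under KO and 77.6% under WT. Few cells lay at the lower limit: 1 KO and 3 WT cells had a C1q sum of 6, and 0 KO cells and 1 WT cell, meeting the other limits, had a sum of 5. On the alveolar side 0 KO and 7 WT cells showed 2 of the 5 genes, and 0 KO and 4 WT cells with enough C1q showed 3. C1q was low in other myeloid cells, where alveolar macrophages had 13 and 13.9 CPM of C1q and classical monocytes 6.75 and 7.18 CPM. The 2067 KO and 485 WT classical monocytes were taken from cells that were not C1q macrophages. By this choice none of them could pass the C1q limits, and 25 of the 53 KO C1q macrophages had a Ly6c2 UMI. The low level in monocytes is thus in part set by how the classes were separated. Endothelial cells, taken as cells with at least 2 Ptprb UMIs and none of Cd3e or Cd79a, had 359 and 58 CPM of C1q, and 3 of 108 KO and 11 of 2521 WT cells passed the C1q limits. Of B cells 1 of 1026 under KO and 7 of 3266 under WT passed the C1q limits. The libraries shared 74 barcode sequences, none of them of a C1q macrophage.

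C1q macrophages were 0.505% of the kept cells under the KO label (0.379 to 0.660) and 0.848% under the WT label (0.724 to 0.987). The share was thus 1.68-fold lower under KO (1.22 to 2.33), a difference of -0.75 on the log2 scale. The difference was -1.61 when cells were thinned to 3000 UMIs before the rule, -1.40 with at least 30 C1q UMIs and -1.31 without cells that showed 3 or more of 5 monocyte genes. Without cells with a UMI of Plac8, a gene of the classical monocyte list, the gap was wider still, at 0.172% under KO and 0.786% under WT. This limit was chosen after seeing the data. Shares also depend on the other cells of a library. Classical monocytes (cells with at least 2 Ly6c2 UMIs and a Ccr2 UMI) were 2067 cells or 19.7% under KO and 485 cells or 2.51% under WT, and without those that had a UMI of the NK and T cell genes Nkg7, Klrb1c, Gzma or Trac, a limit added after seeing the data, 18.7% and 1.10%. By their tags the WT cells left may still hold other cells, as given below. Among the C1q macrophages themselves, low sums were commoner under KO, where 27 of 53 cells had at least 30 C1q UMIs, against 131 of 164 under WT. Of the kept cells 246 KO and 651 WT cells had any C1q UMI, 64 and 220 had all 3 genes, 62 and 217 also a sum of 6, and 60 and 196 also passed the limit on alveolar genes, before T cell, B cell and endothelial genes removed the last 7 and 32.

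Across the transcriptome the 2 groups of C1q macrophages were mostly alike. Of 5683 genes with at least 50 UMIs over both labels, 4766 lay within 2-fold, 304 were at least 2-fold higher under KO, 5.35% of the genes, and 613 at least 2-fold lower, 10.8%. The median log2 ratio was -0.03, and the 10th and 90th percentiles were -1.05 and 0.78. When the cell richest in each gene was left out under each label, 262 genes (4.61%) were still at least 2-fold higher and 605 (10.6%) at least 2-fold lower. These shares are the background for every count below. The limit of 50 UMIs was set on both labels together, with 500347 UMIs under KO and 1266070 under WT. A gene seen only under WT thus entered at a lower CPM than a gene seen only under KO. Of the genes tested 12 had 0 KO UMIs and 0 had 0 WT UMIs, so part of the excess of lower genes can follow from this limit. Many of the ratios below depend on which cells enter and on depth. In 1 setting, chosen after seeing the data, the cells with a UMI of Plac8, a gene of the classical monocyte list, were left out. This kept 18 KO and 152 WT cells. In another each cell was thinned to 3000 UMIs before the rule, which kept 30 and 154 cells. Of the genes named here as at least 2-fold apart 71 had a ratio without the Plac8 cells, of which 25 stayed at least 2-fold apart on the same side, and 57 ratios moved by more than 1.5-fold. After thinning 43 of 75 stayed so and 42 moved by more than 1.5-fold. Without cells that showed 3 or more of 5 monocyte genes 64 of 83 stayed and 39 moved, and with at least 30 C1q UMIs 62 of 82 stayed and 46 moved. The 17 and 18 genes that these last limits brought within 2-fold, C1q genes aside, were all among those lost in the first settings. Apart from the C1q genes of the rule, log2 ratios without the Plac8 cells or after thinning are given below for genes named as at least 2-fold apart that came within 2-fold, and for genes given within 2-fold between the labels that turned or whose ratio moved by more than 1.5-fold. Gfi1 itself had 0 UMIs in the C1q macrophages of both labels. In all kept cells Gfi1 had 340 UMIs under KO, 3.60 CPM (3.23 to 4.0), and 470 under WT, 3.47 CPM (3.16 to 3.79), so this 3′ count did not separate the labels. Which bases the KO allele lacks was not given in the sources used here, and Gfi1 was therefore no check of the labels.

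**Figure D1:**
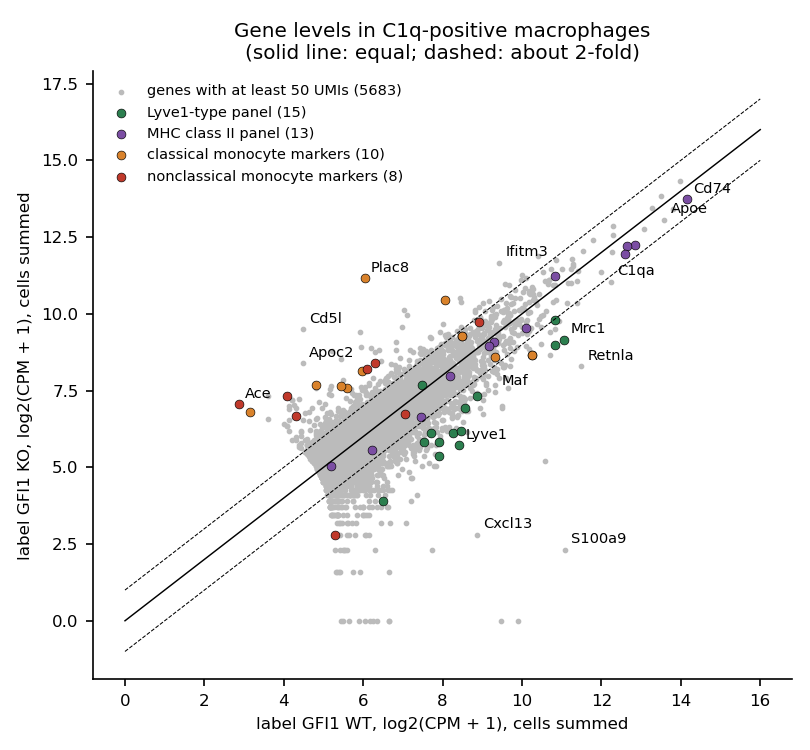
Each point is 1 gene by its level in the C1q macrophages under the GFI1 WT label (x axis) and the KO label (y axis), as log2 of CPM plus 1, for the 5683 genes with at least 50 UMIs, with 4 lists in colour, a solid line of equal levels and dashed lines at about 2-fold. Of the 15 Lyve1-type genes 14 lie at least 2-fold lower under KO, and Plac8 and Ace lie far above the upper line.

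The scavenger receptor side of the interstitial macrophages was lower under the KO label. Of the 15 genes of the Lyve1-type panel, 14 were at least 2-fold lower and none at least 2-fold higher, with a median log2 ratio of -1.86. Together they stood at 3276 CPM under KO and 9983 CPM under WT, a ratio of 0.328 (0.311 to 0.345), and the ratio was 0.292 without the richest cell of each label. The log2 ratio of the sum was -1.61, and -0.86 after thinning and -0.59 without the Plac8 cells. This panel, like the other lists, was chosen with results of these libraries known and is no independent evidence of its direction. Lyve1, a hyaluronan receptor, gave 26 UMIs in 6 of 53 cells and 431 UMIs in 44 of 164 cells, under KO and WT, or 52.0 and 340.4 CPM. It was 6.55-fold lower (4.41 to 10.1) under KO. Timd4, which binds phosphatidylserine on dying cells, gave 7 UMIs in 3 of 53 cells and 114 UMIs in 37 of 164 cells and was 6.44-fold lower (3.02 to 16.4). Cd209f, a C-type lectin, was 5.99-fold lower (3.81 to 9.94) and seen in 3 KO and 26 WT cells. These 3 genes were carried by few cells, with at most 6 KO cells for each. Without the Plac8 cells Cd209f was at a log2 ratio of -0.96.

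Receptors for haemoglobin, mannose and folate followed the same order. Cd163, the receptor for haemoglobin bound to haptoglobin, stood at 72.0 and 355 CPM under KO and WT, in 5 and 64 cells. Mrc1, the mannose receptor CD206, stood at 572 and 2134 CPM and was seen in 19 of 53 and 149 of 164 cells. Mrc1 was thus 3.73-fold lower (3.30 to 4.23), and it was a widespread gene under WT and a minority gene under KO. Folr2, a folate receptor, was 3.12-fold lower (2.39 to 4.15), Stab1, a scavenger receptor, 2.94-fold lower, and Cbr2, a carbonyl reductase, 3.06-fold lower under KO. With the Plac8 cells left out Cd163, Mrc1, Folr2, Stab1 and Cbr2 were at log2 ratios of -0.68, -0.40, -0.51, -0.08 and -0.34, in this order. At 3000 UMIs per cell Mrc1, Folr2 and Stab1 were at log2 ratios of -0.92, -0.62 and -0.78, in this order.

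Secreted members of the panel were lower as well. Pf4, a platelet-type chemokine, gave 251 UMIs in 13 of 53 cells and 2305 UMIs in 119 of 164 cells and was 3.63-fold lower (3.18 to 4.15) under KO. F13a1, the A chain of clotting factor XIII, was 3.03-fold lower (2.61 to 3.52), Gas6, a bridge between dying cells and TAM receptors, 4.30-fold lower (2.92 to 6.59), and Ccl8, a chemokine, 4.51-fold lower (3.17 to 6.61). Selenop, a selenium carrier, was 2.05-fold lower (1.86 to 2.28), at 889 and 1827 CPM. Ltc4s, which makes leukotriene C4, was 3.29-fold lower (2.22 to 5.06). The exception was Fcna, a ficolin that starts the lectin pathway, at 206 and 178 CPM, and 96 of its 103 KO UMIs came from 1 cell. In the cells without Plac8, Pf4, Gas6, Ccl8, Selenop, Ltc4s and Fcna were at log2 ratios of -0.36, -0.54, -0.98, -0.65, -0.88 and -1.96, in this order. When thinned, Pf4, F13a1, Gas6, Selenop and Ltc4s were at log2 ratios of -0.71, -0.98, -0.71, -0.66 and -0.48, in this order.

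Shares of cells gave the same order at equal depth. After each cell was thinned to 3000 UMIs, which left out 0 KO and 7 WT cells, Mrc1 was seen in 26.4% (15.3 to 40.3) of the KO and 85.4% (78.8 to 90.5) of the WT cells. The unthinned shares were 35.8% and 90.9%. Pf4 was seen in 20.8% (10.8 to 34.1) and 66.2% (58.3 to 73.6) and Lyve1 in 9.43% (3.13 to 20.7) and 24.2% (17.7 to 31.7). Alveolar macrophages, with median depths of 13458.5 and 13963 UMIs, had Lyve1 in 0% and 0.224% of cells and Pf4 in 0.864% and 1.05% after the same thinning, but they carry Mrc1 themselves, in 95% and 94.9%. B cells, which should lack Mrc1 and had median depths of 4158.5 and 4547 UMIs, showed it in 4.04% and 6.96%. The shares in C1q macrophages stood above these levels, except for Mrc1, which was seen in fewer of them than of alveolar macrophages under both labels.

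The cells formed a range along this panel, and the labels filled it differently. Cells were split by how many of Lyve1, Folr2, Cd163, Timd4, Fcna and Cbr2 they showed. Under KO 9 of 53 cells (17.0%, 8.07 to 29.8) showed at least 2 of the 6 and 37 (69.8%, 55.7 to 81.7) showed none. Under WT 71 of 164 (43.3%, 35.6 to 51.2) showed at least 2 and 67 (40.9%, 33.3 to 48.8) none. Detection rises with depth, whose part in this split was not tested, and the median depths were 8092 UMIs in the KO cells with at least 2 and 11513 in those with none, and 8387 and 8114 under WT.

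Several genes that did not place the cells followed the range within each library. The 9 panel genes other than the 6 stood at 12462 CPM in cells with at least 2 and 1003 CPM in cells with none under KO, and at 15611 and 2269 CPM under WT. MHC class II went the other way: H2-Aa, H2-Ab1, H2-Eb1 and Cd74 summed to 8675 against 31194 CPM under KO and 22584 against 49116 CPM under WT. Maf, a transcription factor of tissue macrophages, was 8.22-fold higher in cells with at least 2 than in cells with none under KO and 4.38-fold under WT. Apoe was 6.25-fold and 1.90-fold higher. Ccr2, the chemokine receptor of monocytes, was at 12.7 against 775 CPM under KO and 79.0 against 517 CPM under WT. Cx3cr1, the fractalkine receptor, differed in direction between the labels, at 469 against 198 CPM under KO and 183 against 379.5 CPM under WT. Ifitm3 and Thbs1, described below, also did. Ifitm3 was at 811 against 3731 CPM under KO and 918 against 462 CPM under WT, and Thbs1 at 12.7 against 1338 CPM and 176 against 129 CPM. Since the cells were split by their own counts, these values are a description.

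**Figure D2:**
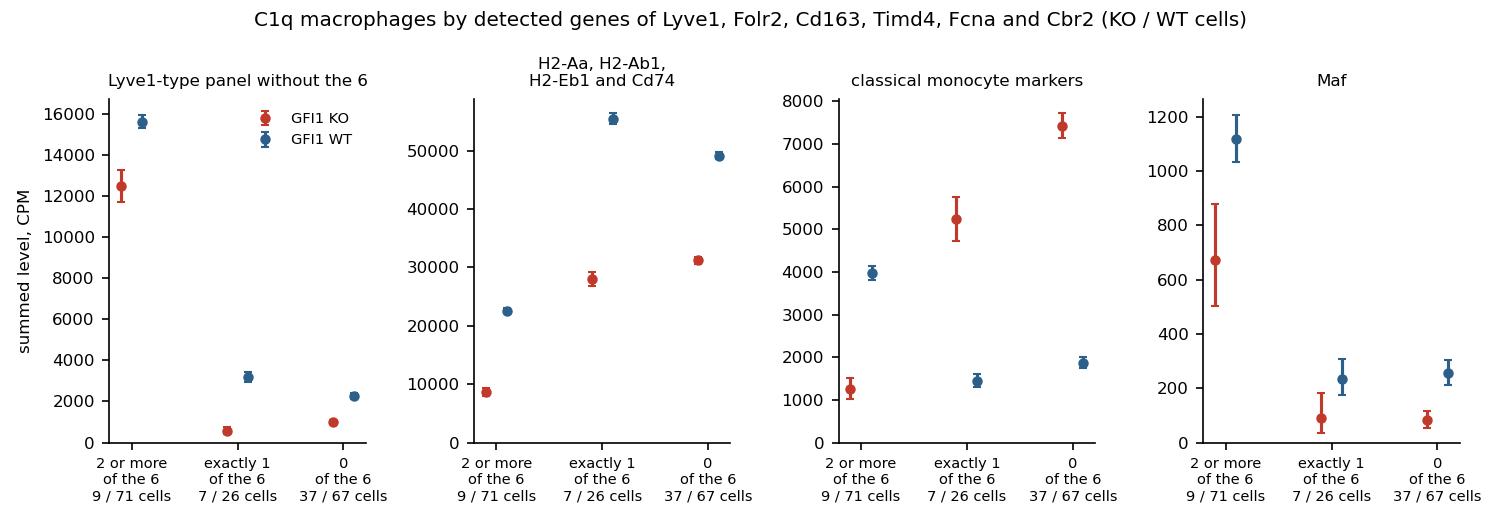
Summed levels in CPM, with exact Poisson 95% intervals for counting error, of the other panel genes, of H2-Aa, H2-Ab1, H2-Eb1 and Cd74, of the classical monocyte markers and of Maf in C1q macrophages that showed at least 2, exactly 1 or 0 of the 6 genes, under the GFI1 KO and WT labels. The classes hold 9, 7 and 37 KO cells and 71, 26 and 67 WT cells, and under both labels Maf is highest and the MHC class II sum lowest in the class with at least 2.

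Within a class of cells, the labels lay closer in the panel at one end of the range and stayed apart elsewhere. Among cells with at least 2 of the 6, which are themselves panel genes, the whole panel stood at 15729 CPM under KO (9 cells) and 18989 CPM under WT (71 cells), a ratio of 0.828 (0.780 to 0.878). Without 1 KO cell rich in Cd5l and 1 WT cell rich in Camp, both described below, the ratio was 0.913. Mrc1 was at 3153 and 3612 CPM and Maf at 671 and 1117 CPM in these cells. Among cells with exactly 1 of the 6 the panel was at 677 CPM under KO (7 cells) and 3369 CPM under WT (26 cells), a ratio of 0.201 (0.149 to 0.266). Among cells with none, 37 under KO and 67 under WT, the ratio was 0.442 (0.390 to 0.50), nearer to that over all cells. In the latter class Mrc1 was at 105 and 871 CPM, and the C1q sum was at a ratio of 0.432.

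MHC class II was lower under KO by less than 2-fold. Of the 14 genes of that panel 13 had at least 50 UMIs, none was 2-fold higher or lower, and their median log2 ratio was -0.43. H2-Aa and H2-Eb1, chains of the antigen-presenting molecules, were at ratios of 0.665 (0.635 to 0.695) and 0.638 (0.607 to 0.670). Cd74, the invariant chain that guides them, had 13543 and 18357 CPM under KO and WT, which gave 0.738 (0.718 to 0.758). Ciita, the master activator of these genes, was at 0.559 (0.401 to 0.764), whereas Ctss, the protease that trims the invariant chain, was at 1.33 (1.24 to 1.42). Per cell, the summed H2-Aa, H2-Ab1, H2-Eb1 and Cd74 had a median of 190.3 UMIs per 10000 under KO, from 0 to 1244, and 378 under WT, from 0 to 1127, so the labels overlapped over nearly the whole range. Without the Plac8 cells H2-Eb1, Cd74 and H2-Ab1 were at log2 ratios of -0.01, 0.07 and 0.00, in this order.

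Monocyte genes were higher under the KO label. Of the 12 classical monocyte markers 10 had at least 50 UMIs, and 7 were at least 2-fold higher and 1, F13a1, at least 2-fold lower, with a median log2 ratio of 2.20. Their summed level was 6112 CPM under KO and 2742 CPM under WT, a ratio of 2.23 (2.12 to 2.34), or 1.16 on the log2 scale. That sum was at 0.19 with no limit on alveolar genes, 0.26 without cells that showed 3 or more of 5 monocyte genes, 0.36 with at least 30 C1q UMIs and -0.52 without the Plac8 cells. Plac8, a small cysteine-rich protein of monocytes and other leukocytes, had the most KO UMIs of the list, where F13a1 had the most under WT, and ranked first among the genes higher under KO by its interval. It gave 1151 UMIs in 35 of 53 cells and 82 UMIs in 12 of 164 cells under KO and WT, at 2300.4 and 64.8 CPM, and was 35.5-fold higher (28.4 to 45). Ly6c2, the surface protein that marks classical monocytes, gave 100 UMIs in 25 of 53 cells and 54 UMIs in 10 of 164 cells and was 4.69-fold higher (3.33 to 6.65). Vcan, a matrix proteoglycan of monocytes, was 13.9-fold higher (7.03 to 30.6), and Ccr2 was at 614 and 355 CPM, a ratio of 1.73 (1.49 to 2.0). B cells also showed such genes more often under KO. At 3000 UMIs per cell Vcan was seen in 18.9% and 1.27% of the C1q macrophages and in 4.49% and 0.283% of B cells, and Ly6c2 in 28.3% and 3.82% against 5.51% and 3.15%. The part of free RNA in the ratios was not tested. With the Plac8 cells left out Ly6c2 and Ccr2 were at log2 ratios of 0.72 and -0.09.

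Markers of nonclassical monocytes, which patrol the vessel wall, were higher in a like way. Of 8 such genes with at least 50 UMIs, 5 were at least 2-fold higher under KO and 1 lower, at 2063 and 849.9 CPM together, a log2 ratio of 1.28 that was 0.49 after thinning. Treml4, an immunoreceptor of these monocytes, gave 79 UMIs in 22 of 53 cells and 20 UMIs in 12 of 164 cells and was 10.00-fold higher (6.06 to 17.2). Ace, the angiotensin-converting enzyme, was 20.9-fold higher (10.00 to 50.4), Spn, the sialoglycoprotein CD43, 5.27-fold higher (3.18 to 8.97), and Itgal, an integrin chain, 4.41-fold higher (3.35 to 5.82). Adgre4, an adhesion receptor, was 4.39-fold higher (3.40 to 5.69). The member that was lower, Pglyrp1, a peptidoglycan-binding protein, had 3 UMIs under KO and 48 under WT, a ratio of 0.158 (0.0315 to 0.491). The thinned cells showed Treml4 in 26.4% and 5.10%, against 2.13% and 1.10% of B cells. They showed Ace in 18.9% and 1.27%, against 1.57% and 1.24% of B cells and 3.26% and 3.02% of alveolar macrophages, so that the WT share of Ace was at background. In the cells without Plac8, Itgal was at a log2 ratio of 0.72. When thinned, Treml4 and Adgre4 were at log2 ratios of 0.25 and 0.19.

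**Figure D3:**
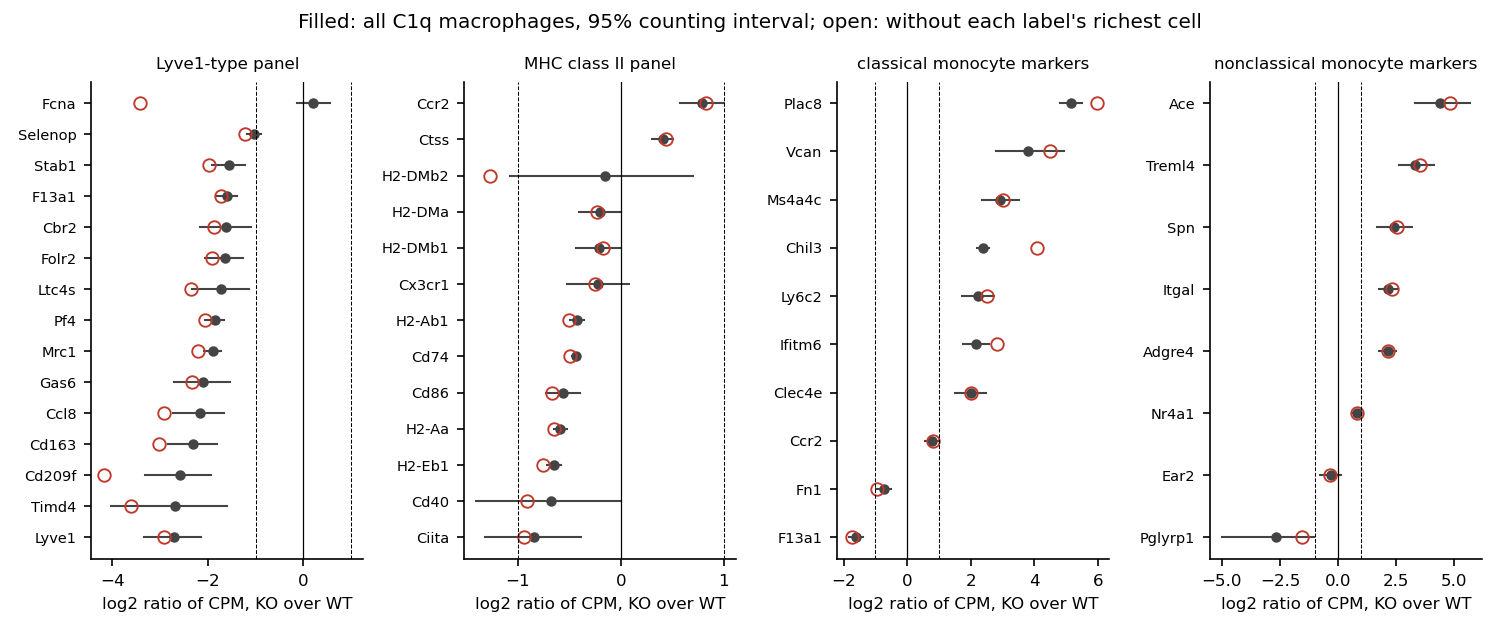
Log2 ratios of the GFI1 KO over the WT level in C1q macrophages for each gene with at least 50 UMIs of 4 lists, as filled points with 95% counting intervals, and without the richest cell of each label as open circles, with dashed lines at 2-fold. Fcna alone of the Lyve1-type panel lies above 0, and it moves far below when 1 cell is left out.

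The Plac8 cells made up most of the C1q macrophages under KO and few under WT, with 35 of 53 cells (66.0%, 51.7 to 78.5) against 12 of 164 (7.32%, 3.84 to 12.4). At 3000 UMIs per cell the shares were 58.5% (44.1 to 71.9) and 5.10% (2.23 to 9.79), and in alveolar macrophages 7.50% and 1.90%. B cells showed Plac8 in 65.2% and 63.1%, so the gene is not confined to monocytes. The KO cells with Plac8 had a median of 26 C1q UMIs and those without it 77.5. Among the 18 KO and 152 WT cells without Plac8, the summed C1q genes were at a ratio of 0.889, H2-Aa, H2-Ab1, H2-Eb1 and Cd74 at 1.00, and the interstitial macrophage markers at 0.981. The Lyve1-type panel was then 7069.5 and 10675 CPM, a ratio of 0.662 (0.620 to 0.707), and the classical monocyte markers turned lower under KO, at 1599 and 2295 CPM. Plac8 is itself among those markers and is 0 here by choice, and F13a1 is in both lists. In the 35 KO and 12 WT cells with Plac8 those markers stood at 7878 and 7398 CPM. The labels thus differed by less in those markers within either class than over all cells, and by less in the panel among the cells without Plac8. Because the split used the gene ranked first under KO and was chosen after seeing the data, closer labels can follow from the choice. These values are a description. The monocyte class of the whole library was also larger under KO, as given above, and the part of monocytes or of their RNA in these values was not tested.

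**Figure D4:**
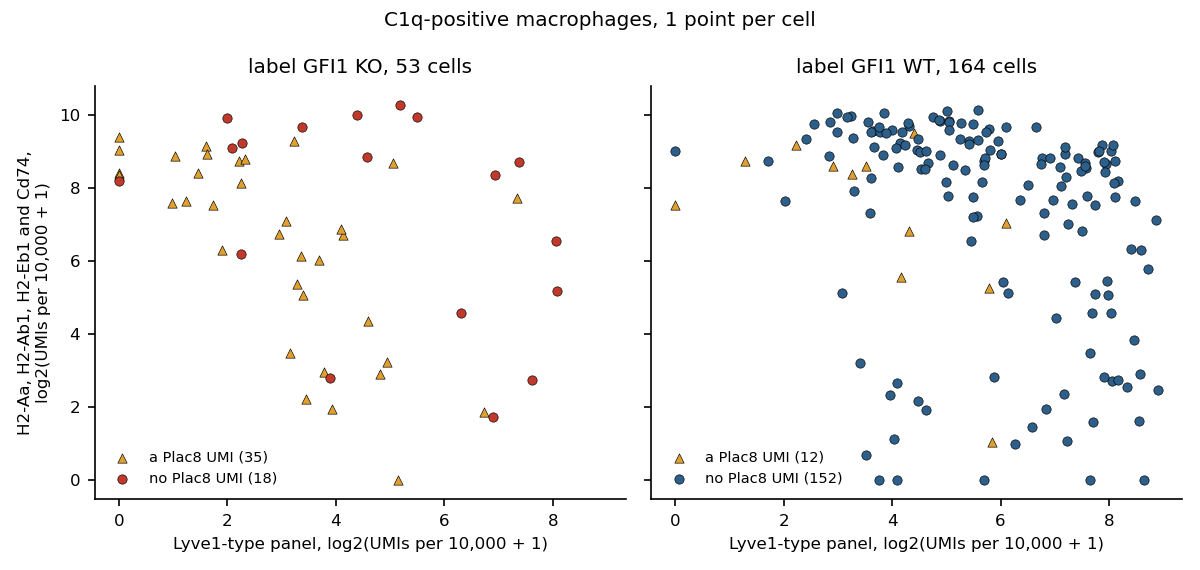
Each point is 1 C1q macrophage under the GFI1 KO label (left, 53 cells) or the WT label (right, 164 cells), by its UMIs per 10000 of the Lyve1-type panel (x axis) and of H2-Aa, H2-Ab1, H2-Eb1 and Cd74 (y axis), both as log2 of the value plus 1, with triangles for cells with a Plac8 UMI. Triangles are 35 of the 53 KO points, mostly at low panel values, and 12 of the 164 WT points.

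Transcription factors of macrophages split in both directions. Of 23 with at least 50 UMIs, 2 were at least 2-fold higher under KO and 3 at least 2-fold lower, near the background shares, with a median log2 ratio of 0.23. Maf was 3.63-fold lower (2.91 to 4.58), at 176 and 639 CPM, and was seen in 26 of 53 and 115 of 164 cells. Mitf, a factor for lysosome genes, was 2.45-fold lower (1.92 to 3.16), and Egr2, an inducible zinc-finger factor, 2.77-fold lower (1.54 to 5.39). Id3, an inhibitor of basic helix-loop-helix factors, was 5.58-fold higher (4.37 to 7.16), and Nr1h3, the oxysterol receptor LXR alpha, 3.47-fold higher (2.20 to 5.53). Spi1, which encodes PU.1, was at a ratio of 1.82 (1.59 to 2.09), Cebpb at 1.77 (1.65 to 1.90) and Zeb2 at 0.747 (0.685 to 0.813). Without the Plac8 cells Maf was at 313 and 693 CPM, and thus still lower under KO. Without the Plac8 cells Mitf, Egr2, Id3 and Cebpb were at log2 ratios of -0.42, -0.15, 0.80 and 0.09, in this order. After thinning Mitf was at a log2 ratio of -0.79.

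Beyond C1q, the complement genes were mixed. Of 14 genes with at least 50 UMIs, 4 were at least 2-fold lower under KO and none higher. Vsig4, a complement receptor that clears coated particles, was 5.80-fold lower (2.56 to 16.2), and C3ar1, the receptor for the C3a peptide, 3.05-fold lower (2.32 to 4.09). C4b, which follows C1q in the classical pathway, was 4.14-fold lower (2.43 to 7.57), and Cfp, properdin of the alternative pathway, 2.38-fold lower (1.90 to 3.01). C4b has a near-identical copy, C4a, with which it can share reads, so that its count is uncertain. C3, the central component, was at a ratio of 1.25 (0.938 to 1.65). With the Plac8 cells left out Vsig4, C3ar1 and Cfp were at log2 ratios of -0.59, -0.30 and -0.51, in this order. At 3000 UMIs per cell C3ar1, C4b, Cfp and C3 were at log2 ratios of -0.61, -0.14, -0.92 and -1.04, in this order.

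Uptake of dying cells and lipid handling showed no common direction. Of 19 efferocytosis genes 2 were higher and 5 lower under KO, and of 15 lipid genes 2 and 3. In the first list 3 of the 5 were Gas6, Stab1 and Timd4 of the Lyve1-type panel. Cd36, a scavenger receptor for lipids, was 3.05-fold lower (2.42 to 3.90) and Mertk, a kinase receptor for bridged dying cells, 2.35-fold lower (1.84 to 3.02). Cd300a, an inhibitory lipid receptor, was 2.33-fold higher (1.99 to 2.72), and Scarb1, the receptor for high-density lipoprotein, 4.82-fold higher (3.10 to 7.65). Trem2, another lipid receptor, lay at 212 and 212 CPM. Apoc2, an activator of lipoprotein lipase, gave 169 UMIs in 30 of 53 cells and 27 UMIs in 19 of 164 cells and was 15.8-fold higher (10.5 to 24.7) under KO. Its neighbour in the genome, Apoe, was at 8596 and 12311 CPM, a ratio of 0.698 (0.675 to 0.722). Lpl, the lipase itself, was 2.72-fold lower (2.08 to 3.62), and Abca1, a cholesterol exporter, 2.17-fold lower (1.81 to 2.61). Apoe was uneven between cells, absent from 3 of 53 and 21 of 164, with medians of 42.9 and 89.7 UMIs per 10000. In the cells without Plac8, Cd36, Mertk, Cd300a, Scarb1, Apoc2, Apoe, Lpl and Abca1 were at log2 ratios of -0.12, -0.45, 0.24, 0.77, 0.23, 0.12, -0.03 and -0.24, in this order. When thinned, Cd36, Cd300a, Trem2, Apoe and Abca1 were at log2 ratios of -0.97, 0.44, 0.86, 0.10 and -0.56, in this order.

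Chemokines were lower under KO as a group. Of 18 with at least 50 UMIs, 10 were at least 2-fold lower and none higher, with a median log2 ratio of -1.30, and the summed level was 6142 and 10763 CPM. The 10 include Pf4 and Ccl8, which were already counted in the Lyve1-type panel. Cxcl13, which draws B cells, gave 3 UMIs in 2 of 53 cells and 587 UMIs in 20 of 164 cells and was 77.3-fold lower (26.3 to 376), with 305 of the WT UMIs in 1 cell. Ccl24, which draws eosinophils, was 7.04-fold lower (4.26 to 12.5), Ccl5 5.93-fold lower (3.63 to 10.3) and the monocyte chemokine Ccl2 3.06-fold lower (2.46 to 3.85). Ccl7 and Ccl12, which are close relatives of Ccl2, were 2.72-fold lower and 2.24-fold lower. Ccl22, a ligand of CCR4, had 0 UMIs under KO and 101 under WT in 10 cells, at least 13.3-fold lower when KO was set at 3 UMIs. Cxcl10, an interferon-induced chemokine, had 1 UMI under KO and 75 under WT, a ratio of 0.0337 (0.000843 to 0.194). Cxcl2, a neutrophil chemokine, was close, at 2051 and 2392 CPM. Cxcl13, Ccl22 and Cxcl10 were thus carried by at most 20 of the 164 WT cells each. Without the Plac8 cells Ccl2, Ccl7, Ccl12 and Cxcl2 were at log2 ratios of 0.02, 0.25, 0.31 and 0.55, in this order. After thinning Ccl2, Ccl7, Ccl12 and Cxcl2 were at log2 ratios of -0.51, 0.51, -0.16 and 0.68, in this order.

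The list of cytokines and inflammatory genes held genes of both directions. Of 23 with at least 50 UMIs, 5 were higher and 8 lower under KO, or 4 and 8 without the richest cells. Il1b, the inflammatory cytokine interleukin 1 beta, gave 1873 UMIs in 43 of 53 cells and 1726 UMIs in 82 of 164 cells and was 2.75-fold higher (2.57 to 2.93), while its antagonist Il1rn was 3.43-fold lower (2.20 to 5.60). Thbs1, an adhesive glycoprotein, gave 555 UMIs in 32 of 53 cells and 165 UMIs in 24 of 164 cells and was 8.51-fold higher (7.14 to 10.2). At 3000 UMIs per cell Thbs1 was seen in 49.1% and 8.28% of the C1q macrophages and in 12.4% and 2.23% of B cells, and Il1b in 77.4% and 43.9% against 15.7% and 9.51%, so both genes were more widespread under KO in B cells as well. Tgm2, a crosslinking enzyme, was 4.05-fold higher (3.27 to 5.02). Il10, which dampens inflammation, gave 7 UMIs in 3 of 53 cells and 186 UMIs in 32 of 164 cells and was 10.5-fold lower (5.0 to 26.5). Igf1, a growth factor of tissue macrophages, was 2.37-fold lower (1.80 to 3.18). Retnla, a resistin-like protein of the response to interleukin 4, had 156 UMIs under KO, all in 1 cell, and 3636 in 38 WT cells. With the Plac8 cells left out Il1b, Il1rn, Thbs1, Tgm2 and Igf1 were at log2 ratios of 0.45, -0.24, -0.53, 0.95 and -0.87, in this order. At 3000 UMIs per cell Il1rn and Igf1 were at log2 ratios of -0.52 and -0.98.

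Interferon genes did not move together. Of 13 with at least 50 UMIs, 2 were higher and 3 lower under KO, although the summed level was 5102 and 2039 CPM. Ifitm3, a protein that blocks virus entry, had the most UMIs of the list. It gave 1626 UMIs in 47 of 53 cells and 870 UMIs in 127 of 164 cells and was 4.73-fold higher (4.35 to 5.14), and after thinning it was seen in 84.9% and 63.7% of the C1q macrophages and in 16.7% and 5.34% of B cells. Irf7, a master factor of the response, was 5.54-fold higher (3.24 to 9.78), whereas the antiviral genes Rsad2 and Oasl2 were 4.94-fold lower and 3.11-fold lower. Among acute-phase genes, Hp, haptoglobin, gave 221 UMIs in 28 of 53 cells and 46 UMIs in 8 of 164 cells and was 12.2-fold higher (8.81 to 17.1), and Lrg1, a glycoprotein, 7.11-fold higher (4.26 to 12.3). Of the 11 measured members of that list 5 were higher and 4 lower, or 5 and 2 without the richest cells. In the cells without Plac8, Ifitm3 was at a log2 ratio of 0.55.

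Lysosome genes lay near the centre. Of the 22 measured, 1 was at least 2-fold lower under KO and none higher, with a median log2 ratio of 0.00 and summed levels of 17788 and 17244 CPM. The 1 gene was Ctsd, the protease cathepsin D, which was 2.20-fold lower (1.92 to 2.53). Of 13 iron and heme genes 3 were lower, namely Cd163, Cp (ceruloplasmin) at 0.343 (0.201 to 0.557) and Gclm, a glutathione synthesis gene, at 0.477 (0.242 to 0.870), though Gclm came within 2-fold without the richest cells, at a log2 ratio of -0.76. Of 16 Fc and growth factor receptors 1 was higher and 2 lower. Fcgr4, an activating IgG receptor, was 4.55-fold higher (3.13 to 6.71), whereas Fcgrt, which recycles IgG, was 2.40-fold lower (1.86 to 3.14) and Tgfbr1, a TGF-beta receptor, 2.79-fold lower (2.22 to 3.56). Of 20 immediate-early genes, which tissue dissociation can induce, 4 were lower under KO, namely Fosb, Jun, Egr1 and Klf6, from 2.26-fold lower to 2.56-fold lower. Fos and Junb were at ratios of 0.795 (0.742 to 0.852) and 0.982 (0.922 to 1.05). Of 15 cell cycle genes 6 had at least 50 UMIs, none passed 2-fold, with a median log2 ratio of 0.76. Together they stood at 1971 CPM under KO and 1212 CPM under WT, 1.63-fold higher (1.5 to 1.76), or 1.19-fold without the richest cells, and 36.5% of their KO UMIs came from 1 cell. Without the Plac8 cells Ctsd, Fcgrt, Tgfbr1, Jun, Egr1, Klf6 and Junb were at log2 ratios of -0.19, -0.41, -0.57, -0.37, -0.17, -0.42 and 0.34, in this order. After thinning Ctsd, Cp, Gclm, Fcgrt, Jun, Egr1, Klf6, Fos and Junb were at log2 ratios of -0.19, -0.26, -0.80, -0.94, -0.70, -0.19, -0.65, 0.10 and 0.32, in this order.

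The genes furthest apart by their intervals included some outside the lists. Besides Plac8, Apoc2, Ace, Hp, Thbs1 and Vcan, the 12 highest under KO held Ifitm1, a relative of Ifitm3, at 14.3 (8.03 to 27.3), Plcb1, a phospholipase C, at 8.72 (6.41 to 12), Gngt2, a G protein subunit, at 7.30 (6.12 to 8.73), and Napsa, an aspartic protease, at 7.89 (6.08 to 10.3). The other two, Cd5l, a secreted scavenger protein, and Marco, a scavenger receptor, owed 363 of 364 and 339 of 340 KO UMIs to the same cell, which also held 96 Fcna UMIs and had 22485 UMIs of the genes that enter CPM, the second most of the KO cells. At the lower end, S100a9, S100a8, Camp, Ngp and Ltf, proteins of neutrophil granules and cytosol, came mostly from 1 WT cell, with 21533 such UMIs the deepest. It held all 1214 Camp, 891 Ngp and 126 Ltf UMIs, 1680 of 1943 S100a8 UMIs and 2433 of 2738 S100a9 UMIs. Cd209d, a C-type lectin, had 0 UMIs under KO and 95 in 18 WT cells, at least 12.5-fold lower, and Prg4, lubricin, 0 and 90 UMIs, the latter in 2 cells. Iigp1, an interferon-induced GTPase, had 1 UMI under KO and 125 under WT, a ratio of 0.0202 (0.000508 to 0.115). Kcnip4, also among the lowest, is a gene of the rule. With the Plac8 cells left out Napsa and Cd5l were at log2 ratios of 0.78 and -0.87.

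Markers of other cells were checked over whole lists. Of 15 neutrophil and granule genes 7 had at least 50 UMIs, and their sum was 289.8 CPM under KO and 5846 CPM under WT, or 245 and 843 CPM without the richest cells, with 8 of the 15 at 0 under KO. Of 12 dendritic cell markers 5 were measured and 4 were lower under KO, at 436 and 1231 CPM together. Mgl2, a lectin that interstitial macrophages also carry, had the most UMIs among them, with 96 UMIs in 14 of 53 cells and 1022 UMIs in 122 of 164 cells, and was 4.21-fold lower (3.41 to 5.24). Cd209a, the lectin DC-SIGN of dendritic cells and monocyte-derived cells, had 4 UMIs under KO and 171 under WT. T cell and NK markers summed to 49.97 and 147 CPM, B cell markers to 118 and 277 CPM, endothelial markers to 134 and 95.6 CPM, and fibroblast markers to 138 and 235 CPM. Ighm, an antibody heavy chain, had the most UMIs of the B cell list, 55 under KO and 198 under WT, while Igkc, a light chain, had 0 and 82, the latter in 19 cells. Under KO 7 of the 10 B cell, 6 of the 10 endothelial, 5 of the 10 epithelial, 4 of the 10 fibroblast and 4 of the 12 T cell and NK markers were at 0, with Cd3e, Cd79a and Ptprb at 0 by the rule. Scgb1a1, a secretory protein of airway club cells, was 10.2-fold lower, and alveolar macrophages had it at 42.8 and 827 CPM too, so that it was lower under KO in both. No erythroid gene reached 50 UMIs. The part of these lists in the other results was not tested. In the cells without Plac8, Mgl2 was at a log2 ratio of -0.63. When thinned, Mgl2 and Ighm were at log2 ratios of -0.92 and 0.35.

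The alveolar macrophage list had 10 of its 19 genes measured, with 2 higher and 4 lower under KO, or 1 and 4 without the richest cells, and sums of 2708 and 1436 CPM against 28535 and 31988.5 CPM in alveolar macrophages. Chil3, which is also in the classical monocyte list, gave 695 of the 1355 KO UMIs of this list in C1q macrophages. A doublet caller marked 2 of the 53 KO and 3 of the 164 WT cells. Ribosomal protein, mitochondrial and Gm- genes took 18.2% of the UMIs under KO and 14.2% under WT, and the mitochondrial share had medians of 2.88% and 2.86%.

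The CD11c tag had a lower median under KO and was uneven among the cells. CD11c, an integrin that alveolar macrophages carry at 1024.5 and 920.5 tag UMIs per cell at the median, stood at 22 under KO and 62 under WT on C1q macrophages. At least 30 CD11c UMIs were found on 49.1% and 70.1% of these cells. The KO cells without Plac8 had a CD11c median of 128.5 and those with it 18, and the WT cells 65 and 29, where an isotype control, RTK2758, had 4.50 and 5 under KO and 9 and 5.50 under WT. Along the Lyve1-type range the direction was opposite in the labels, with 81 in cells with at least 2 of the 6 genes and 20 in cells with none under KO, and 42 and 119 under WT. The KO direction was also that of the isotype control in the same cells, given below, whose part in it was not tested. CD45, the common leukocyte protein, had medians of 846 and 436.5. The tag of the neutrophil protein Ly-6G was low, with medians of 1 and 2.

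Antibodies with no target also bound unevenly. The isotype control RTK2758, an antibody without a known antigen here, had medians of 54 and 20 under KO and WT in cells with at least 2 of the 6 Lyve1-type genes and of 3 and 4 in cells with none. CD4, CD127, CD196, CD335 and CD117 tags followed it, with CD127 at 152 and 51 against 14 and 12. Whether those tags marked the proteins they name was not tested. CD11b did not follow the control, at 343 and 351 against 660 and 331.

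**Figure D5:**
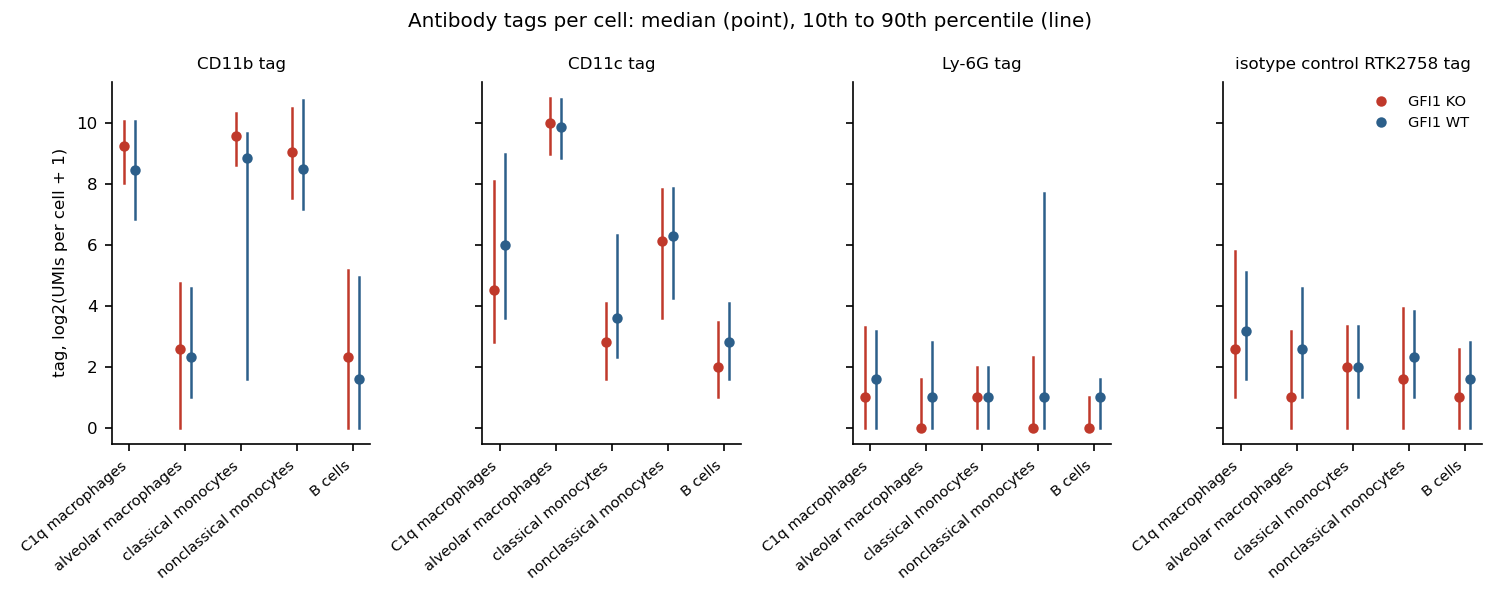
Antibody tag UMIs per cell, as log2 of the count plus 1, for 4 tags and 5 cell classes (classical monocytes without the NK and T cell UMIs named below) under the GFI1 KO and WT labels, with medians as points and 10th to 90th percentiles as lines. C1q macrophages carry CD11b at medians of 605 and 351.5, where alveolar macrophages have 5 and 4.

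Set beside other myeloid cells of the same libraries, the ratio of KO over WT for the Lyve1-type panel was lowest in the C1q macrophages. It was 0.328 in them, and at 1.03 in alveolar macrophages, 1.65 in classical and 1.45 in nonclassical monocytes (cells with Treml4 and Cd300e). Of the classical monocytes under WT, 212 of 485 had no UMI of the NK and T cell genes Nkg7, Klrb1c, Gzma and Trac, against 1958 of 2067 under KO. Over those 212 and 1958 cells, a limit added after seeing the data, the panel was at 1.09. At least 30 CD11b tag UMIs were found on 81.1% of these WT and 99.6% of these KO cells. The same limit was met for B220, a B cell tag, on 17.5% and 1.33%, and for CD4 on 14.6% and 0.204%. The limited WT class may thus still hold other cells, whose part in its ratios was not tested. The chemokines were at 0.571 in C1q macrophages and at 0.948 in alveolar macrophages and 0.925 in nonclassical monocytes, and at 0.435 in all and 0.936 in the limited classical monocytes. MHC class II, at 0.747 in C1q macrophages, was at 0.848 in alveolar macrophages, 0.932 in nonclassical monocytes and 0.742 in all or 0.509 in the limited classical monocytes. The classical monocyte markers were 2.23-fold higher in C1q macrophages, 2.04-fold in nonclassical monocytes and at a ratio of 0.779 in alveolar macrophages. They were at 1.79 in all and 1.24 in the limited classical monocytes. Alveolar macrophages carried this list at 11632 and 14938 CPM, above the 6112 and 2742 CPM of C1q macrophages, so the list is not confined to monocytes. Chil3 is in both this list and the alveolar macrophage list, and its part in these sums was not tested. With 1 library per label these differences between cell classes were not tested.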

How the data were processed

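Lung cells from 1 GFI1 KO and 1 WT mouse were profiled with the 10x Genomics 3′ chemistry. The submitters' processing notes name Cell Ranger 9.0.1 and the mouse build GRCm39, and the deposited matrices hold UMI counts of genes and antibody tags in each called cell, which the authors had not normalised. From these counts, cells were kept with at least 500 UMIs, at least 200 genes and at most 20% mitochondrial UMIs, after the limits of the study's methods, whose first limit is in reads and was taken here as UMIs, which left 10495 of 10700 called cells under KO and 19342 of 19515 under WT, with 116568283 and 162281932 gene UMIs. Ribosomal protein, mitochondrial and Gm- genes, 9538 of 33696, were left out of CPM, also as in those methods. UMIs were summed over the C1q macrophages of each label, which gave 500347 and 1266070 UMIs, and ratios were formed for genes with at least 50 UMIs over both.

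Intervals at 95% were exact: Poisson for levels, conditional binomial for ratios and Clopper-Pearson for shares. They cover counting error only, and the calculation was checked on simulated data. Where a gene had 0 UMIs, a floor of 3 counts over the group gave a bound. With 1 library per label no test was made. Shares of cells were also computed after thinning each cell to 3000 UMIs. Doublets were marked with Scrublet in Scanpy 1.11.5 and kept, except in 1 alternative. The other tools were Python 3.11.15, NumPy 2.4.6, SciPy 1.17.1, pandas 2.3.3 and Matplotlib 3.10.9.

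The text names, from each gene list, the genes at least 2-fold apart and otherwise those with most UMIs, the 12 highest and 12 lowest genes by the interval bound nearer to 1, and the antibody tags. Not all genes that this rule allows are named, some genes and 1 tag are not reported here, and a few genes within 2-fold are given for comparison. The cells, the lists and the rule were chosen with earlier results of these data known. Alternatives changed the rule for the cells, the scaling, the weight of cells and the limit on low counts.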

Additional observations from a re-analysis of the deposited data

Results flagged for a closer look

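F13a1, the A chain of clotting factor XIII, stood out because its KO over WT difference had opposite signs in 2 kinds of macrophage. Its log2 ratio was -1.60 in C1q macrophages, at 402 and 1216 CPM under KO and WT, and 3.10 in alveolar macrophages, at 26.0 and 3.03 CPM. Each label had 1 library, so the difference between the cell types was not tested. In nonclassical monocytes F13a1 was at 173 and 23.2 CPM and in classical monocytes without NK or T cell UMIs at 1033 and 876 CPM, though the WT cells of that class may still hold other cells. The alveolar levels were low beside those of classical monocytes, and the part of free RNA in them was not tested.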

How the results depend on the processing

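The share of C1q macrophages was lower under the KO label in all alternatives run. Log2 ratios ran from -0.44 to -1.61, apart from the setting without cells with a Plac8 UMI, where the gap was wider, at shares of 0.172% and 0.786%. It was -1.61 when cells were thinned to 3000 UMIs before the rule (30 KO and 154 WT cells), -1.31 without cells that showed 3 or more of 5 classical monocyte genes (35 and 160 cells), and -1.40 with at least 30 C1q UMIs (27 and 131 cells). The counts of 304 higher and 613 lower genes were 88 and 225 after thinning, 103 and 201 with at least 200 UMIs per gene, 673 and 1619 with at least 10, and 175 and 391 with at least 30 C1q UMIs. They were 148 and 460 without cells with a Plac8 UMI. Fewer cells, UMIs or genes entered in these settings by construction, apart from the limit of 10 UMIs, which let more genes in. Dividing by the UMIs of all genes gave 253 and 677, and setting the median ratio to 1 gave 337 and 583.

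Leaving out the Plac8 cells turned the classical monocyte markers to -0.52, Ccl2 to 0.023, Ccl7 to 0.25, Ccl12 to 0.31, Thbs1 to -0.53 and Cd5l to -0.87 (log2), and brought the Lyve1-type panel from -1.61 to -0.59 and the nonclassical markers from 1.28 to 0.84. Of 71 named genes past 2-fold with a value 25 stayed past it. Thinning turned Ccl7 to 0.51, brought the panel to -0.86, the classical markers from 1.16 to 0.77 and the nonclassical to 0.49, and left 43 of 75 past 2-fold. The classical markers were at 0.19 with no limit on alveolar genes, 0.26 without cells with 3 or more monocyte genes and 0.36 with at least 30 C1q UMIs, and in the latter 2 settings 64 of 83 and 62 of 82 named genes stayed past 2-fold. Leaving out the richest cell turned Cd5l to -2.41 and Marco to -3.82. Except for Cd5l and Marco, the cause was not tested. The settings with at least 30 C1q UMIs, without Plac8 cells and without the richest cell were chosen after seeing the data. No paired analysis was possible because each label had 1 library, and there was no replicate to leave out. The KO values rest on 500347 UMIs from 53 cells, against 1266070 from 164 under WT: 12 of the 5683 genes had 0 KO UMIs, and 1 cell held most of the KO UMIs for 82 genes.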

Other observations

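In the C1q macrophages with at least 30 C1q UMIs, a limit chosen after seeing the data, 27 KO and 131 WT cells remained. There the Lyve1-type panel was at 5673 and 11691 CPM and thus at 0.485 of the WT level (0.459 to 0.513), and Maf at 304 and 746 CPM. Plac8 was at 1275 and 11.7 CPM, a ratio of 109 (61.7 to 214), while the classical monocyte markers as a list were at a ratio of 1.28 (1.19 to 1.38). Il1b was 2.84-fold higher (2.59 to 3.10) and Ifitm3 2.56-fold higher (2.27 to 2.89) under KO in these cells.

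The number of alveolar macrophage genes in a cell, 0 or 1 of 5, went with lower panel levels under both labels. The Lyve1-type panel stood at 3403 CPM in the 46 KO cells with 0 and 2279 CPM in the 7 with 1, and at 12036 CPM in the 115 WT cells with 0 and 6374 CPM in the 42 with 1. Under KO the difference rests on 7 cells with 1 such gene, and 1 cell held 15.5% of all KO panel UMIs. Maf was alike under KO, at 176 and 177 CPM, and stood at 786 and 379 CPM under WT. All of these are values of single libraries, and none was tested.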
